A study of Homo sapiens with 14 samples.

Results

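MDA-MB-231 is an established human cell line of triple-negative breast cancer, a tumour type without oestrogen receptor, progesterone receptor or amplified HER2. The libraries described here are the 3 H3K4me2 ChIP-seq libraries of cells kept in DMSO, the solvent control, chosen by their treatment label out of 14 samples in the series. The labels give 24 to 96 h of exposure for the whole experiment and no time for a single library. Per the labels, all 3 carried 5% Drosophila chromatin as a spike-in and came from formaldehyde-fixed, sonicated chromatin. Their titles call them biological replicates 1 to 3, and nothing states how the cultures were kept apart, so the SDs below may be partly technical. The inhibitor libraries, the untreated ChIP library and the 7 inputs were not analysed here.

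Histone H3 carrying 2 methyl groups on lysine 4 (H3K4me2) lies round active and poised promoters and at enhancers. It is written by the SET1 and MLL (KMT2) methyltransferases, which work with a shared core of WDR5, RBBP5, ASH2L and DPY30, and it is removed by KDM1A and the KDM5 demethylases. At promoters the mark flanks the trimethylated nucleosomes next to the start, and across a cell type's identity genes it can spread over many kilobases.

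The deposited table counts reads over 54942 regions of the hg38 build, which cover 135.4 Mb of chromosomes 1 to 22 and X. Totals were 17150428, 16607971 and 18524206 counts in replicates 1, 2 and 3. Region strength is given as CPM, a count scaled to a library total of 1000000, where 1 CPM is about 17.4 counts, or as counts per kb of region, the mean of the 3 libraries. Log2 CPM of all regions with counts correlated at Pearson's r = 0.987 between replicates 1 and 2, 0.983 between 1 and 3 and 0.979 between 2 and 3, across regions that share their library's depth. Regions were 316 to 88797 bases long, with a median of 1570. Gene-end regions are those at most 1 kb from the start or end of a protein-coding gene, regions inside a gene are others that overlap one, and the remainder lie between genes.

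The promoters of 3 genes known as markers of the line and of 1 liver gene whose start no region covered show how differently marked and bare starts can read. They are the 250 bases upstream of the start, 5′ to 3′ on the plus strand, from RefSeq (GRCh38.p14), with every CpG in capitals. VIM (vimentin, the intermediate filament of mesenchymal cells) lies at chr10:17227991-17228240 and CD44 (the hyaluronan receptor) at chr11:35138921-35139170. EGFR (the epidermal growth factor receptor) lies at chr7:55018767-55019016 and ALB (albumin, made by hepatocytes) at chr4:73404037-73404286.
VIM: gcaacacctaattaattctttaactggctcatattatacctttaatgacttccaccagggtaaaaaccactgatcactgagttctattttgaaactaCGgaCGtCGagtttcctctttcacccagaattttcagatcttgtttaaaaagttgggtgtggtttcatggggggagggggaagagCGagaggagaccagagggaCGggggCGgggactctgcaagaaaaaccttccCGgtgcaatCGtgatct
CD44: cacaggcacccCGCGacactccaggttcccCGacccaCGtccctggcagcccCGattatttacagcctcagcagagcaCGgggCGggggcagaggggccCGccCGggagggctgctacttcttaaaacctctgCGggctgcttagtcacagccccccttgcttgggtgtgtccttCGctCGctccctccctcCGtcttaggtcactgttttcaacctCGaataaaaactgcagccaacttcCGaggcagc
EGFR: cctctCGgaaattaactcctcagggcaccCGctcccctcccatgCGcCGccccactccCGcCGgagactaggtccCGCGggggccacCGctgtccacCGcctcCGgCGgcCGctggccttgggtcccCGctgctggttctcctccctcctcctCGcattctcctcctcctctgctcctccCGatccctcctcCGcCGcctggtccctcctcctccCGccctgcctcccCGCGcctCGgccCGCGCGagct
ALB: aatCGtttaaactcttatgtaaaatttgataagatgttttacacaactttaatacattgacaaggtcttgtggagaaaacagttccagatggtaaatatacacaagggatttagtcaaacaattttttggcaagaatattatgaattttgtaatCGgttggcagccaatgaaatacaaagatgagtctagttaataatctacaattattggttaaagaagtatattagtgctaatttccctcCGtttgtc

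The VIM promoter held 8 CpG at a GC content of 46.0%, CD44 15 at 62.4%, EGFR 25 at 73.6% and ALB 3 at 30.0%. A region covered the starts of VIM, CD44 and EGFR, and none covered the start of ALB. The VIM region began 2254 bases upstream of the start and ran 8103 bases into the gene. At CD44 the region reached 1800 bases upstream and 7049 bases inward, and at EGFR 2207 bases upstream and 8319 bases inward. All of these regions were thus several times wider on the transcribed side.

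All 5 marker genes of the line had a region at an end, as did 68.1% of all protein-coding genes. FOSL1 (FRA-1, an AP-1 transcription factor) had 482, 459 and 540 CPM in replicates 1, 2 and 3, or 494 ± 41.8 (SD, n = 3), in a region of 41549 bases. That region, chr11:65881000-65922548, also touched the ends of C11orf68, CCDC85B, CTSW, DRAP1 and FIBP, so its counts cannot be given to FOSL1 alone. The other 4 markers lay close together in strength. CD44 had 114, 118 and 120.4 CPM over 8850 bases, and MYC (the proto-oncogenic transcription factor) had 101, 97.1 and 120.5 CPM over 10395 bases. EGFR had 97.3, 96.5 and 95.1 CPM over 10527 bases, and VIM had 93.6, 87.2 and 97.8 CPM over 10358 bases. Compared within each library, CD44 and MYC both lay above EGFR and VIM in all 3, although the lowest value of MYC fell within the range of EGFR. CD44 and MYC changed order in replicate 3, and so did EGFR and VIM. VIM, MYC and FOSL1 had no other region, whereas CD44 had 5 in all and EGFR 16, spread over genes of 93.2 kb and 192.6 kb. Summed over its regions EGFR reached 516, 553 and 452 CPM, of which the region at its start held 18.99%. The strongest region of EGFR was an inner region of 16001 bases with 108, 116 and 96.8 CPM.

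Gene-end regions were 12818 in number, 23.3% of regions, yet they held 43.2% of the covered length. They took 48.3%, 46.6% and 51.6% of the counts of replicates 1, 2 and 3, or 48.8 ± 2.54% (SD, n = 3). The 23813 regions inside genes (43.3%) took 28.8%, 29.8% and 26.6% of counts, and the 18311 regions between genes (33.3%) took 22.97%, 23.7% and 21.8%. Replicate 3 was thus the highest of the 3 libraries at gene ends and the lowest in both other classes. The counting error of these shares was small beside that spread, with 95% Wilson intervals no wider than ± 0.0240 percentage points. Much of the difference in counts per region went with width. A gene-end region had a median Length of 3598 bases and a median of 31.5 ± 2.04 CPM (SD, n = 3), against 1350 bases and 6.30 ± 0.724 CPM inside genes and 1174 bases and 7.99 ± 0.499 CPM between genes. Among regions with a mean count of at least 50, the order of the other two turned, with medians of 10.2 CPM inside genes and 9.07 CPM between genes. Per kb the gap narrowed to medians of 148 counts at gene ends, 97.9 inside genes and 126 between genes.

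**Figure D1:**
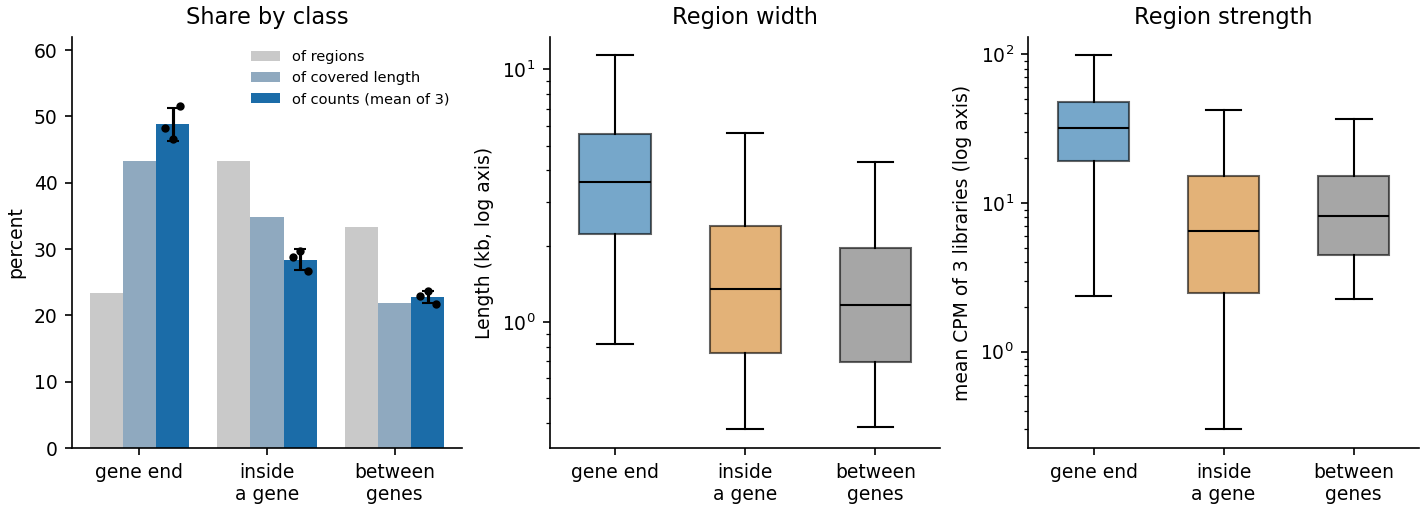
H3K4me2 regions by class in 3 DMSO libraries. Left, bars give the percent of regions, of covered length and of counts in each class. For counts, points are the 3 libraries and error bars ± 1 SD. Middle and right, boxes show the median and quartiles of Length and of mean CPM on log axes. Whiskers run from the 5th to the 95th percentile, and the CPM boxes leave out regions without counts. Gene-end regions are 23.3% of regions but 48.8% of counts.

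Width sorted the classes more than density did. Of 16964 regions under 1 kb, 5.26% were gene-end regions, against 38.3% of those of 2 to 5 kb and 77.3% of the 172 regions of 20 kb or more. Those 172 regions were 0.313% of all regions and held 3.62 ± 0.0109% of counts. Median CPM per kb stayed within 6.14 and 7.70 across all 6 width classes. The strongest 1% of regions (549) held 9.09 ± 0.167% of counts and the strongest 10% held 40.2 ± 1.05%. Of those 549 regions, 420 lay at gene ends, 82 inside genes and 47 between genes, and 457 regions were among the strongest 1% of every library.

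The spread between libraries fell as regions grew stronger. The median coefficient of variation was 34.5% in the weakest decile of regions and 6.47% in the strongest decile. The value expected from counting error had medians of 38.7% and 3.11% in these deciles. A coefficient computed from 3 libraries typically falls below its expected value, so 34.5% does not show less spread than counting error. Library differences followed class as well. Replicate 3 over replicate 2 had a median log2 ratio of 0.15 at gene ends, -0.27 inside genes and -0.17 between genes. Since the classes also differ in strength, class and strength were not separated in these ratios.

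The strand and start of 15811 of the 19970 protein-coding genes could be placed with RefSeq promoter entries. Of 13117 pairs of such a gene and its end region, 74.2% lay at an annotated start only, with a median of 34.8 CPM and 3979 bases. A further 18.2% lay at the far end only, with a median of 14.7 CPM and 2779 bases, and 7.62% reached both ends, with 57.6 CPM and 7604.5 bases. Gene-end regions in this table were therefore mostly regions at starts. A region lay directly over the outermost annotated start of 10198 genes (64.5%). For the 6290 covered starts whose region touched only that gene, the region reached a median of 1097.5 bases upstream and 2469 bases into the gene, and 86.5% of these regions ran further inward than upstream.

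Covered starts were rich in CpG. In the 300 bases round the start, covered starts held a median of 27 CpG at 65.7% GC, against 6 CpG at 54.3% GC for starts that no region covered. The observed over expected CpG ratio had medians of 0.847 and 0.314. By CpG count the covered share climbed from 7.70% of 1533 starts with 0 to 2 CpG, through 37.1% with 6 to 10 and 77.1% with 16 to 20, to 86.3% with 21 to 25. It then levelled off, at 86.5% of 4354 starts with over 30 CpG. Width followed CpG far less than coverage did: covered starts had a median Length of 3425 bases with 0 to 2 CpG and 4591.5 bases with over 30. The letters TATAAA, searched on both strands and in any position, stood in 5.34% of covered starts, 17.8% of bare ones and 9.75% of all 15811. VIM, with 8 CpG in the 250 bases upstream of its start, had a wide, strong region. That window differs from the 300 bases used above, so VIM was not placed in a CpG class.

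**Figure D2:**
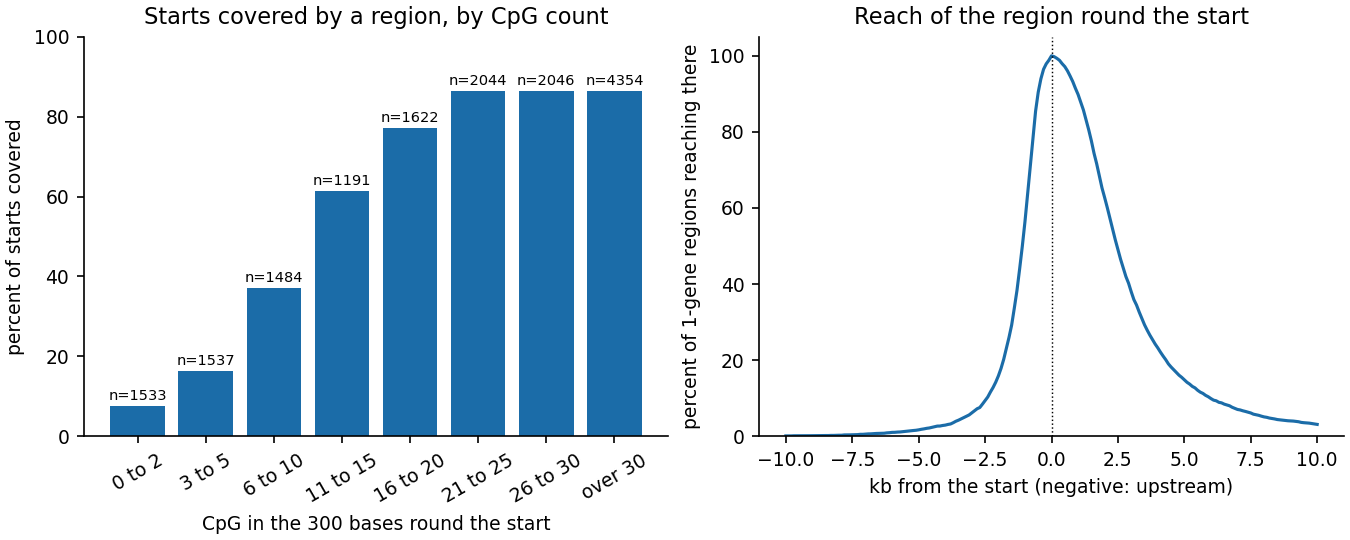
Left, percent of annotated starts covered by a region (y axis) by the number of CpG in the 300 bases round the start (x axis), with the number of starts above each bar. Right, percent of 6290 regions that touch 1 gene only (y axis) still present at each distance from the start in kb (x axis, negative upstream). Coverage rises from 7.70% to 86.5% with CpG count, and regions extend further into the gene than upstream.

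The strongest region of all lay over BCL2L1, which encodes the survival protein BCL-XL. It spanned chr20:31660724-31728374, 67651 bases, with 743, 726 and 661 CPM, or 710.3 ± 43.3 (SD, n = 3). ACTN4 (alpha-actinin 4, an actin cross-linker) held the widest region, chr19:38646758-38735554, of 88797 bases with 624, 632 and 543 CPM, and this region also touched CAPN12. Replicate 3 was the lowest library at both. The third was a region inside PLEC (plectin, a linker of the cytoskeleton) of 34422 bases with 528, 501 and 626 CPM, where replicate 3 was the highest. NIBAN2 followed with 536 ± 5.65 CPM over 58609 bases, and then a region shared by RHOF, SETD1B and TMEM120B with 514 ± 37.8 CPM. The sixth lay between protein-coding genes, in the long noncoding RNA gene MIR100HG, the host of miRNAs of the let-7 and miR-100 families, with 536, 494 and 474 CPM over 48443 bases. FOSL1 was the seventh. PXN (paxillin, a focal adhesion adaptor) had 488 ± 17.1 CPM and BCL9L (a coactivator of beta-catenin) 448 ± 62.9 CPM, both also among the 10 strongest. The SDs show that neighbours in this order overlapped, for example NIBAN2 and PLEC.

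Ranked by width, the 10 longest regions included 5 of these 10. After ACTN4, the longest included MYH9 (nonmuscle myosin heavy chain, 71118 bases and 383 ± 2.98 CPM), BCL2L1, SMURF2 (a ubiquitin ligase of TGF-beta signalling, 60411 bases and 422 ± 27.9 CPM) and NIBAN2. They ended with CRIM1 (56986 bases and 215 ± 17.6 CPM), PXN, SHB (an SH2 adaptor, 49925 bases and 385 ± 41.4 CPM) and LINC-PINT (49483 bases and 375 ± 6.83 CPM). CRIM1 showed that width and strength could part: its region was longer than that of PXN, with 65.5 counts per kb against 161. Inside genes the strongest after PLEC were SHB and LMNA (lamin A/C, 340.2 ± 19.8 CPM over 24911 bases), and the longest after SHB were ZMIZ1 (43490 bases) and TRIO (38445 bases). Between genes the strongest after MIR100HG were LINC-PINT and PVT1, the noncoding neighbour of MYC (305 ± 10.1 CPM over 30950 bases), and MIR222HG on the X chromosome was the third longest (39410 bases and 214 ± 18.6 CPM). None of the 10 strongest by CPM was among the 10 densest per kb.

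**Figure D3:**
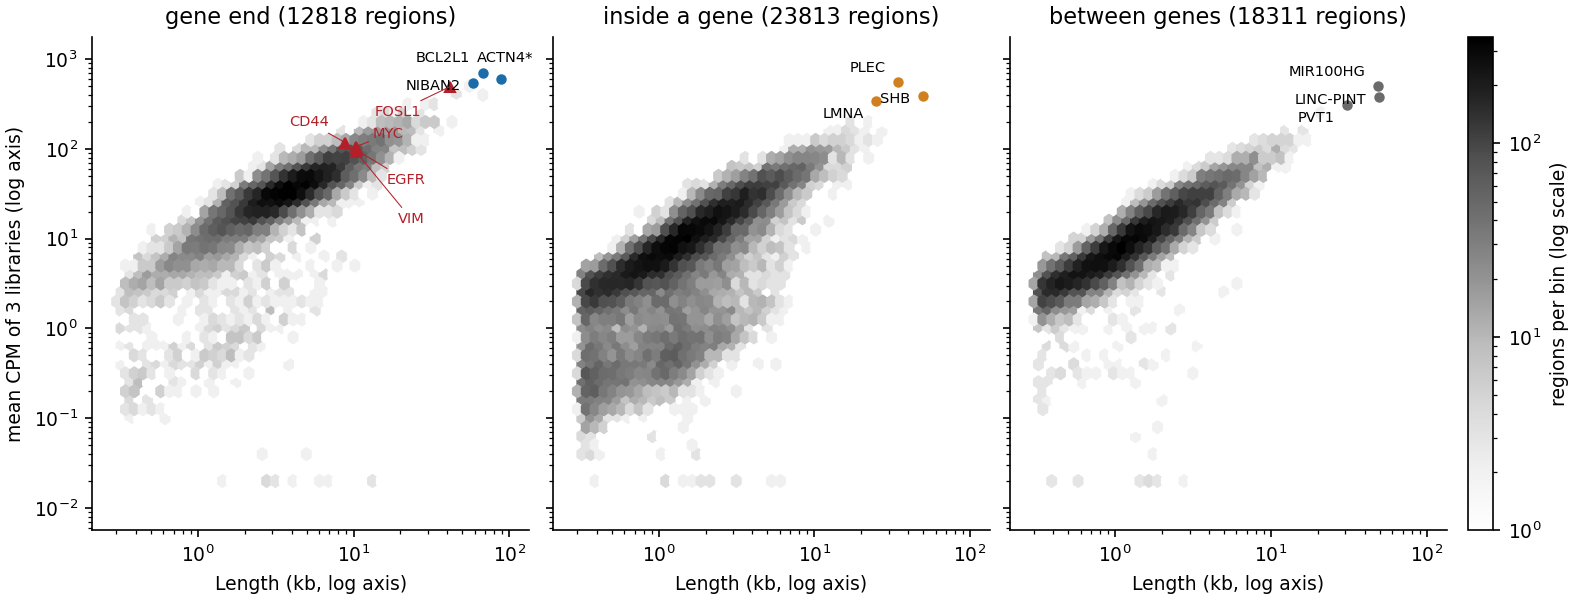
Mean CPM of 3 DMSO libraries (y axis, log) against Length in kb (x axis, log) for regions of each class, shaded by the number of regions per bin on a log scale. Coloured dots mark the 3 strongest regions of each class and red triangles the marker genes (an asterisk marks a region shared with another gene). Most regions follow a ridge of near-constant density, and a second group of weak regions lies under it, mostly inside genes.

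The densest regions were short. Among regions of at least 500 bases, a region at ETV7 (an ETS factor) led with 724 counts per kb over 2704 bases, or 104, 100.4 and 131 CPM. NOL4L followed with 637, a region near NCR2 with 626, MDGA1 with 585, FKBP5 (a glucocorticoid-inducible immunophilin) with 520 and GNMT with 519. The list closed with ADAP1 (512), EPB41L1 (511), PPP1R3G (501) and a region near FGD2 (493). Replicate 3 was the highest library at each of these 10 regions. Several lay near each other: ETV7, NCR2, MDGA1, FKBP5, GNMT and FGD2 all lay on chromosome 6 between 35 and 45 Mb.

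That stretch stood apart as a whole. In 554 windows of 5 Mb with at least 20 regions, median density had a 5th percentile of 90.2, a median of 119.9 and a 95th percentile of 151 counts per kb. The 2 densest windows, on chromosome 6 at 35000001 to 40000000 and 40000001 to 45000000, had 227 and 219. In the first of them the libraries gave 229, 230.4 and 208 counts per kb. All 3 classes were dense there, with medians of 271 at gene ends, 168 inside genes and 261 between genes in the first window and 244, 149 and 250.2 in the second. Together the windows held 384 regions, 0.699% of all, but 31 of the 100 densest. The third window lay on chromosome 20 at 50000001 to 55000000, with 188 counts per kb. Copy number was not measured here, and its part in these densities was not tested.

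**Figure D4:**
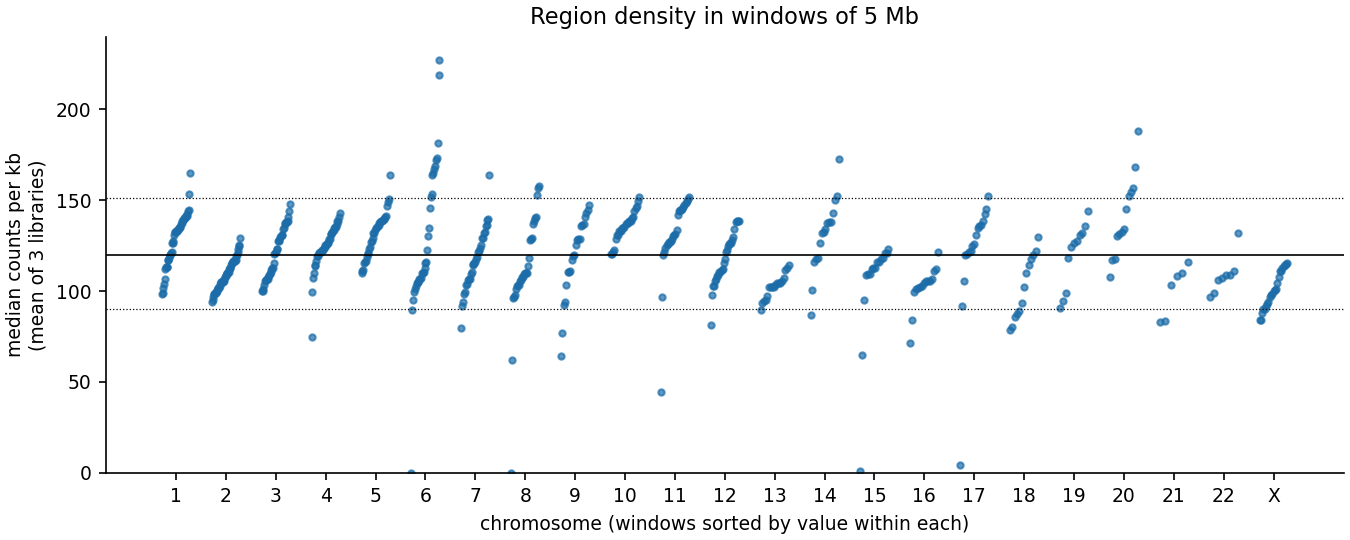
Median counts per kb of the regions in each 5 Mb window (y axis, mean of 3 libraries), by chromosome (x axis), with windows sorted by value within a chromosome. The solid line is the median of 554 windows (119.9) and the dotted lines their 5th and 95th percentiles (90.2 and 151). The 2 densest windows, on chromosome 6, stand at 227 and 219, and a few windows fall close to 0.

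Regions away from gene ends also came in groups. Joined over gaps of up to 0.0125 Mb they formed 26569 clusters, of which 18339 were a single region and 834 held 5 regions or more. The strongest 1% of clusters (266) held 12.3% of the CPM away from gene ends. The strongest cluster lay over PVT1 downstream of MYC, with 12 regions in 168 kb and 1021, 1081 and 973 CPM, or 1025 ± 54.1 (SD, n = 3). EXT1, which encodes a heparan sulfate polymerase, had 28 regions in 274 kb with 1074, 1100.4 and 837 CPM. The libraries of these clusters overlapped, and without replicate 3 EXT1 would lead with 1087. SHB and SLC25A51 (716 ± 96.9), SEPTIN9 (a septin cytoskeleton protein, 704 ± 36.8) and DST (dystonin, a cytoskeletal linker, 701 ± 95.6) came next. Replicate 3 was the lowest library in all 5.

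Marking at gene ends was widespread. Of 19970 protein-coding genes 13591 had a region within 1 kb of an end, a background of 68.1%, and 1417 had one of 10 kb or more, a background of 7.1%. The strongest end region of a marked gene had a median of 36.1 CPM and 4120 bases. Among 52 cytosolic ribosomal protein genes 52 were marked, among 20 housekeeping genes 20 and among 24 genes of the H3K4 methylation machinery 24. With regions of a mean count of at least 50 only, 50 ribosomal and 18 housekeeping genes were marked, since RPS9, RPS18, TUBB and B2M had called regions with almost no reads. Regions of 10 kb or more stood at 18 ribosomal genes (34.6%) and 8 housekeeping genes (40%), which had medians of 54.9 and 72.9 CPM and 8310 and 9190.5 bases. In that machinery SETD1B shared the fifth strongest region of the table, KMT2A (MLL1) had 102 ± 11.1 CPM and KMT2B 98.6 ± 9.91 CPM. WDR5, named because it is the protein that OICR-9429 binds, had 57.2, 52.8 and 59.1 CPM over 6287 bases. RPL8 and RPL24 led the ribosomal genes with 137 ± 15.8 and 120.3 ± 8.87 CPM, each in a region shared with 2 other genes. HSP90AB1 (222 ± 27.3 CPM, shared with 2 others) and POLR2A (162 ± 9.12, shared with 2 others) were among the strongest housekeeping genes, and HSP90AB1 lies in the dense stretch of chromosome 6. At the other end, 11 of 392 olfactory receptor genes were marked, at 2.35 to 13.1 CPM.

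Mesenchymal and EMT (epithelial-mesenchymal transition) genes carried wide regions, as the housekeeping genes did. Of 38 genes 32 were marked (84.2%, beside 68.1% of all genes), with medians of 72.9 CPM and 9604 bases. Of the 38, 16 had a region of 10 kb or more (42.1%), against the background of 7.1% and the 40% of housekeeping genes. S100A4 (a calcium-binding protein of motile cells) had 274, 281 and 284 CPM over 18785 bases, in a region shared with S100A3, S100A5 and S100A6. MMP14 (a membrane matrix metalloproteinase) had 182, 170.1 and 171 CPM over 24518 bases, shared with MRPL52. Both were named as among the strongest of the list. Its marked genes ranged from 12.8 to 280 CPM, beside a median of 36.1 CPM for all marked genes. The unmarked members were CDH2 (N-cadherin), TWIST1, TWIST2, TPM1, COL6A2 and WNT5A. For TPM1 (tropomyosin 1) and WNT5A the annotated start lay further in than the outer gene end and carried a region, of 62.4 ± 2.44 and 71.4 ± 11.3 CPM. CDH2 held 5 regions inside the gene and none near its start, TWIST2 3, COL6A2 1 and TWIST1 none.

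Epithelial genes were marked too, at strengths and widths near those of all marked genes. All 34 of the junction and identity list had a region, beside 68.1% of all genes. Their median was 32.9 CPM and 3090.5 bases, beside 36.1 CPM and 4120 bases, and 2 of 34 reached 10 kb (5.88%, near the background of 7.1%). EHF (an epithelial ETS factor) had 164, 164 and 142 CPM over 12887 bases and CLDN7 (claudin 7, shared with ELP5) 109.9 ± 9.32 CPM. CDH1 (E-cadherin), named after its values were seen as the defining gene of the list, had 14.2, 14.4 and 15.98 CPM over 1269 bases. Its mean exceeded that of 12.6% of marked genes. The members OCLN, TJP1 and MARVELD2, were marked only by called regions with almost no counts, of 0.267, 0.0943 and 0.0194 CPM.

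The breast lineage lists were split within themselves. Marked genes had medians of 93.1 CPM and 7420.5 bases in the basal list and 37.4 CPM and 3934 bases in the luminal list. Of 25 basal genes 12 were marked (48%, beside 68.1% of all genes), led by LAMB3 (laminin beta 3, 215, 214 and 204 CPM over 23781 bases), ITGA6 (integrin alpha 6, 122 ± 3.48 CPM over 17129 bases) and MYC. Of the 6 keratins of the list, KRT5, KRT14, KRT17, KRT6A and KRT6B had no region at an end or inside, and KRT16 had a short one of 898 bases with 9.56, 9.15 and 9.61 CPM (named after its values were seen). TP63, the master factor of basal epithelium, had no region at its outer ends but 15.3 ± 0.302 CPM at an inner annotated start; it was named after its values were seen. Of 27 luminal genes 20 were marked (74.1%, near the 68.1% of all genes). The strongest were at the simple keratins KRT19 (127, 127 and 140.2 CPM over 10422 bases) and KRT7 (84.5 ± 7.30 CPM) and at FOXA1 (80.9 ± 14.3 CPM, shared with TTC6). ESR1 (oestrogen receptor alpha) had no region at its outer ends, but 11 inside, of which that at its annotated start had 17.03, 16.4 and 19.3 CPM over 1762 bases. TFF1 and TFF3 (trefoil peptides of oestrogen-responsive cells) and AGR3 had none at all. Of the keratins, KRT19, KRT7, KRT8 and KRT18 of the luminal list were marked, and of the basal list KRT16 alone.

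The AP-1, TEAD and RUNX list, factors known to bind enhancers in mesenchymal-like breast cancer cells, was marked in 27 of 28 genes (96.4%, beside 68.1% of all genes) with a median of 65.5 CPM. After FOSL1 came TEAD3 (242, 242 and 257 CPM over 15115 bases, shared with TULP1) and TEAD1 (208, 207 and 189 CPM over 21632 bases), both DNA-binding partners of YAP. The TEAD3 region began at position 35483600 of chromosome 6, in the dense stretch described above. The unmarked member, WWTR1 (TAZ, a coactivator of TEAD factors), had 60.4 ± 4.44 CPM at an inner annotated start.

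**Figure D5:**
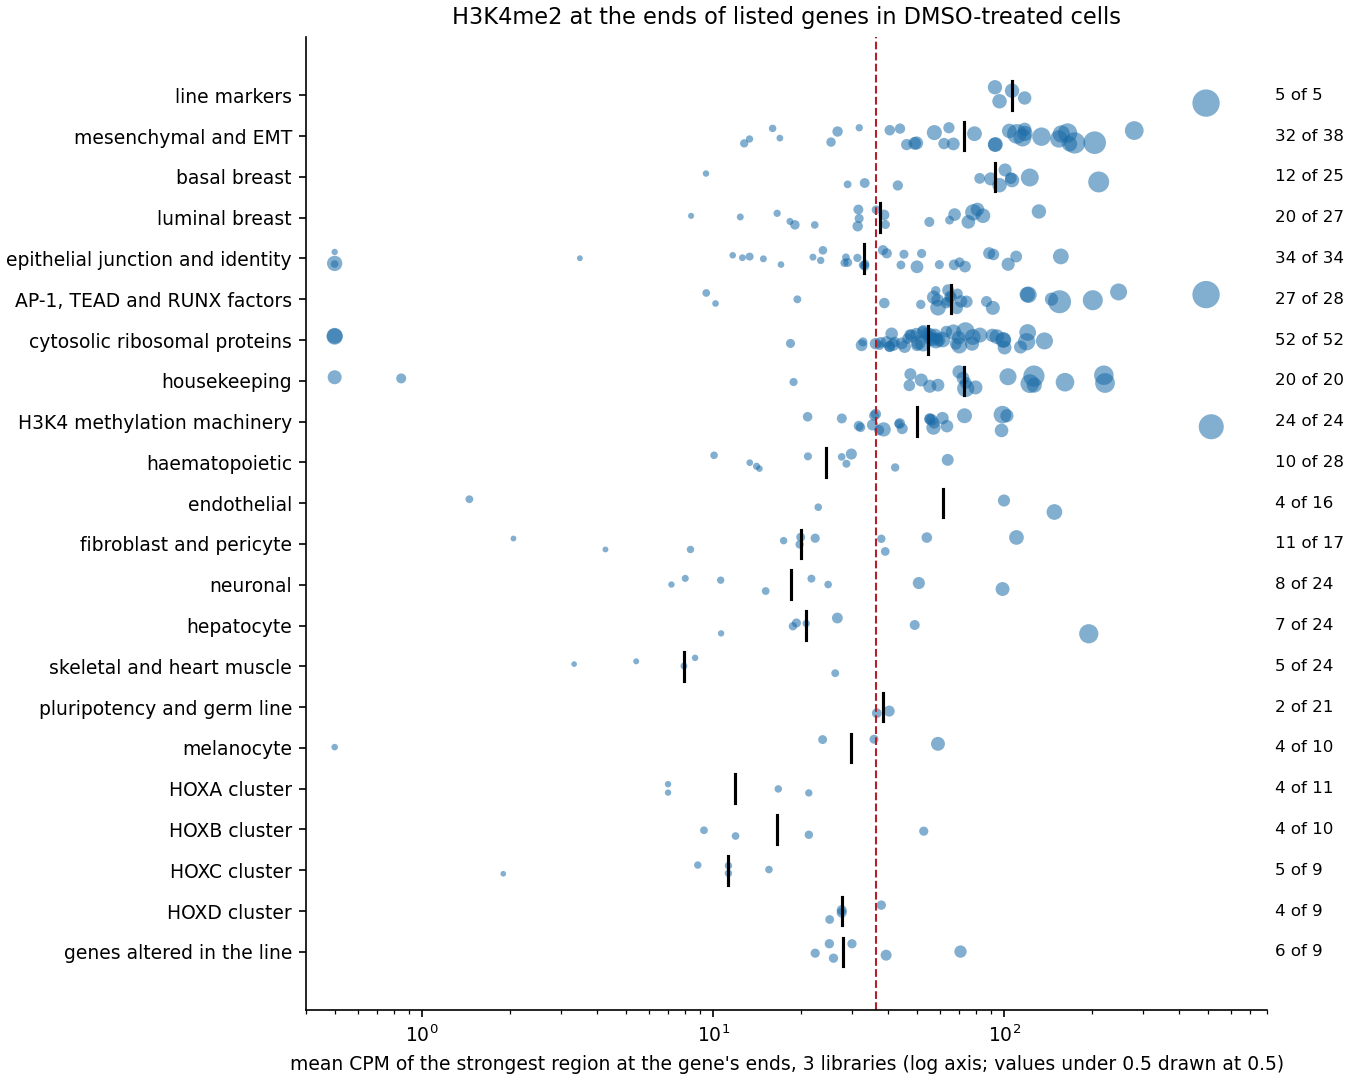
Mean CPM over 3 DMSO libraries of the strongest region at each marked gene's ends (x axis, log) for each gene list (y axis); dot size grows with Length, black ticks are list medians, and the red dashed line is the median of all 13591 marked genes (36.1 CPM). Marked over listed genes stand at the right. Mesenchymal and housekeeping genes share a median of 72.9 CPM, and most haematopoietic, neuronal, muscle and germ line genes have no dot.

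In 8 lists of other lineages, 9.52% to 64.7% of the genes were marked, beside the background of 68.1%. Median strength of the marked genes lay under the 36.1 CPM of all marked genes in most of these lists. The exceptions were the endothelial list (61.4 CPM, 4 marked genes) and the pluripotency and germ line list (38.3 CPM, 2 marked genes). Of 28 haematopoietic genes 10 were marked, led by CD79A (63.9 ± 2.45 CPM, a region shared with ARHGEF1 and not at the start of CD79A), CD8A (42.2 ± 7.66) and CSF1R (29.8 ± 5.67, shared with HMGXB3). PTPRC (CD45), CD3D, CD3G and MS4A1 were unmarked. PTPRC lies partly in a run of 10 called regions without a count, so its missing mark cannot be read as a lack of H3K4me2. Endothelial genes were marked in 4 of 16, with ESAM (149 ± 5.41 CPM, shared with VSIG2) and ROBO4 (99.8 ± 2.44) on top and KDR (the VEGF receptor) at 22.9 ± 1.17. PECAM1, CDH5, VWF, FLT1 and TEK were unmarked at their ends. Fibroblast and pericyte genes were marked in 11 of 17, at a median of 19.97 CPM, with MCAM (110.1 ± 10.3), RGS5 (54.2 ± 2.57, shared with NUF2) and ACTA2 (39.0 ± 4.97) on top. DCN, LUM, THY1, POSTN and DPT were unmarked, and COL1A2 and COL3A1 had 4.26 and 2.06 CPM.

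The remaining lineages were marked in 9.52% to 40% of genes, with a few strong exceptions. Of 24 hepatocyte genes 7 were marked. FOXA2, a pioneer factor of endoderm, had 189, 183 and 213 CPM over 19779 bases, stronger than 98.9% of marked genes, followed by FOXA3 (49.2 ± 6.70, shared with SYMPK) and TF (26.7 ± 0.677, shared with 2 others). ALB, APOA2, APOB, APOH and TTR were unmarked. Of 24 neuronal genes 8 were marked, led by TUBB3 (98.6 ± 11.7, shared with MC1R and 1 other), SNAP25 (50.9 ± 6.63) and SLC17A7 (24.8 ± 5.99). RBFOX3, NEFL, NEFM, NEUROD1 and NEUROG1 were unmarked. Of 24 muscle genes 5 were marked, with 1 of them above 10 CPM (TNNI3, 26.2 ± 1.40, shared with DNAAF3), followed by ACTC1 (8.66) and MYL2 (7.93). MYOD1, MYF5, MYF6, MYOG and ACTA1 were unmarked. Of 21 pluripotency and germ line genes 2 were marked: SOX2 with 41.3, 36.8 and 42.5 CPM over 5542 bases, and MAEL with 36.5 CPM, shared with ILDR2. POU5F1, NANOG, LIN28A, LIN28B and DPPA4 were unmarked. Of 10 melanocyte genes 4 were marked, led by PMEL (59.2 ± 2.16, shared with CDK2 and RAB5B), MITF (35.7 ± 3.22) and DCT (23.8 ± 3.30), whereas TYR, TYRP1, MLANA, SLC45A2 and PAX3 were unmarked. The other marked gene, OCA2, had only a called region at 0 CPM. With a mean count of at least 50, 3 melanocyte genes were marked.

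HOX genes set position along the body axis. Regions stood at the ends of 4 of 11 HOXA genes, 4 of 10 HOXB, 5 of 9 HOXC and 4 of 9 HOXD. These shares of 36.4% to 55.6% lay beside 68.1% of all genes. HOXA had regions at HOXA9, HOXA10, HOXA11 and HOXA13 (6.99 to 21.3 CPM) and none at the ends of HOXA2 to HOXA7. HOXB was marked at HOXB5, HOXB6, HOXB9 and HOXB13, with HOXB9 highest at 52.9 ± 6.80 CPM. HOXC was marked at HOXC4, HOXC5, HOXC6, HOXC10 and HOXC11 (1.90 to 15.5 CPM), and HOXD at HOXD1, HOXD3, HOXD4 and HOXD13 (25.1 to 37.8 CPM). No HOX region reached 10 kb, and the medians of 11.9, 16.6, 11.3 and 27.6 CPM for HOXA, HOXB, HOXC and HOXD all lay under the 36.1 CPM of marked genes.

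Among 9 genes known to be altered in lines of this kind, 6 were marked (66.7%, near the 68.1% of all genes), among them NF2 (39.3 ± 3.51 CPM) and NF1 (29.96 ± 0.606 CPM). CDKN2A, CDKN2B and MTAP on chromosome 9 were bare. No region of the table lay between positions 20756802 and 25647395 there, a gap of 4.89 Mb with 24 protein-coding genes. A deletion of CDKN2A is known background for the line, and copy number was not measured here.

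A small set of called regions held no reads. In the 3 libraries 1059, 1045 and 1037 regions were at 0, and 897 were at 0 in all of them. Regions with a mean count under 1 numbered 1043, had a median Length of 1466 bases and reached 42242 bases, so they were not merely short. They came in stretches: 32 runs of at least 10 neighbouring regions with a mean under 10 counts held 697 regions. The longest runs lay on chromosome 6 at 28586196 to 31154802 (124 regions) and 31859877 to 33456547 (64 regions), and on chromosome 14 at 92945448 to 94389039 (48 regions). Constitutive genes fell in them: TUBB and RPS18 had 0 CPM in called regions of 9818 and 13734 bases, and RPS9 had 0.479 CPM. OCLN, MARVELD2, TJP1 and OCA2 had end regions of the same kind, and B2M had 0.847 CPM over 4244 bases. How reads that map to several places were treated is not given in the sources used here, and the cause of these zeros was not tested. A value near 0 in these stretches therefore cannot be read as a gene without H3K4me2.

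A further 4564 regions had at least 1 count on average but under 20 counts per kb, a limit set after the data were seen. Of these, 84.7% lay inside genes, against 39.5% of the regions above the limit, and together they held 0.347% of counts. The 3865 inside genes had a median of 8.41 counts per kb, against 111 for the others there, at a median Length of 1072 against 1432 bases. Their genes were nearly all marked at an end, in 97.4% of cases against 79.9% for the others. Not all inner regions were placed along their gene. Among those that were, regions of this kind grew more frequent along it. They were 6.25% of 3455 regions in the first of 5 equal parts and 25.6% of 3597 in the last. Chromosome 19 held 12.0% of the 3865 and 3.04% of the others. TRIO held most, 21 of its 44 inner regions, and all 11 in PCNT, all 9 in BAZ1B and all 9 in TRRAP were of this kind; these genes were named after their values were seen.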

How the data were processed

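The authors deposited raw read counts, not normalised, over 1 common set of regions on hg38. The submitters' processing notes name the tools Bowtie, MACS2, deepTools, featureCounts and DESeq2 and, for the fly spike-in, the build dm6. For versions, settings, duplicate or multiply mapped reads and how peaks were merged, the answer is not given in the sources used here. Regions are thus limited to what that peak calling found. Of 6 ChIP columns the 3 of DMSO libraries were used. The spike-in was not used, so values are relative to a library's total.

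CPM were computed from column sums and Length is the deposited width of a region in bases. Gene ends came from a RefSeq gene table and starts from RefSeq promoter entries, both of GRCh38.p14, the same coordinates as hg38. A gene takes its end region with the highest mean count. Regions without a protein-coding gene took the name of the nearest within 100 kb. Promoter entries were printed where the table had them, which left out FOSL1.

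The members and the 23 gene lists (458 of 459 listed symbols were found) were chosen with earlier results of these data known. Named genes followed a fixed rule: the 10 strongest, densest (at least 500 bases) and longest regions, the 3 strongest and longest of each class, the 5 strongest clusters, the 5 markers, and per list the 3 strongest marked and up to 5 unmarked genes. A few genes that this rule names are not reported here. With 1 group, no test was made. Classes, pairing and spread were tested on simulated data. Work was done in Python 3 with pandas and numpy. Alternatives used TMM factors of edgeR 4.0.16 and size factors of DESeq2 1.42.0 in R 4.3.3, other distances, gaps and filters, and each replicate left out.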

Additional observations from a re-analysis of the deposited data

How the results depend on the processing

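Of 369 recomputed values, 34 moved by at least 1 SD or, for counts, by over 1.5 times. None of the 90 values for single genes did. For most of them this was fixed in advance. Leaving out 1 of 3 libraries cannot shift the mean of a region by 1 SD, and the count filter left these regions unchanged. Only TMM factors and DESeq2 size factors could have moved them, and did not. Region counts and median Length likewise could not change when a replicate was left out. Counting all genes of the reference table in place of protein-coding ones raised the gene-end share of counts to 58.1% and left 13.0% and 11602 regions between genes. Annotated starts only gave 42.97% at gene ends and 33.7% inside genes. A mean count of at least 50 gave medians of 10.2 CPM inside genes and 9.07 between genes, so the order of these classes turned, and 8.06% and 36.1% of counts in the strongest 1% and 10% of regions. Ranking by counts per kb kept 0 of the 10 strongest regions. With regions overlapping the gene end itself (distance 0), 5 haematopoietic, 2 muscle, 1 HOXA, 1 HOXC and 3 olfactory receptor genes were marked. With 2 kb, 11 hepatocyte, 4 pluripotency and germ line and 7 HOXB genes were marked. Of all 19970 protein-coding genes 12579 were marked at distance 0 and 14099 at 2 kb. With annotated starts only, 3 of 3 line markers with a placed start, 7 of 11 basal, 20 of 20 epithelial, 3 of 14 haematopoietic, 2 of 9 endothelial and 7 of 10 fibroblast genes were marked, and 2 of 9 HOXA, 0 of 1 HOXB, 2 of 2 HOXC, 2 of 8 HOXD and 3 of 314 olfactory receptor genes. Of all 15811 genes with a placed start 11017 were marked under this rule. These counts are lower in part because genes without a placed start drop out. Joining regions over 5 kb or 25 kb gave 10.7% or 13.5% of CPM in the strongest 1% of clusters and 554 or 1149.9 CPM in the strongest cluster. Leaving out each replicate in turn, whichever cluster was then the strongest had 996.7 to 1087 CPM, the latter at EXT1 in place of PVT1. Marked genes with a mean count of at least 50 over the remaining libraries numbered 13082 to 13091. No paired analysis was possible because only 1 group was analysed. Depth limits the weakest decile of regions, where the coefficient of variation expected from counting error had a median of 38.7%.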
